A study of Mus musculus with 96 samples.

Results

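The PDGF and FGF signaling loci are 6 stretches of the mouse genome around genes of PDGF and FGF signalling. These are the receptors Pdgfra, Fgfr1 and Fgfr2, the ligand Fgf4, and the feedback inhibitors Dusp6 and Spry4. The members of these loci are the GATA6 binding regions whose summit lies in a fixed mm10 window around each gene. This gave 73 of the 42403 regions in the deposited table: 20 at Pdgfra, 6 at Fgfr1, 15 at Fgfr2, 5 at Fgf4, 9 at Dusp6 and 18 at Spry4. The windows were chr5:75050000-75300000 for Pdgfra, chr8:25410000-25680000 for Fgfr1, chr7:130060000-130370000 for Fgfr2, chr7:144760000-144970000 for Fgf4, chr10:99160000-99370000 for Dusp6 and chr18:38480000-38710000 for Spry4. The rule itself uses position and the calling of a GATA6 peak by the authors, and the windows were drawn with earlier results of these data known.

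ChIP-seq, the sequencing of DNA that an antibody to a protein pulls down with it, was done for GATA6, SOX17, OCT4, SOX2 and ESRRB, with input chromatin as background. The cells were KH2 mouse embryonic stem (ES) cells of strain C57BL/6 x 129/Sv, all of which carried a doxycycline (Dox)-inducible Gata6 cassette, with a tag of 3 copies of the HA epitope, beside the endogenous Gata6 gene. They were collected untreated (d0) or after 8 h, 16 h, 1 day, 2 days and 4 days (8h, 16h, d1, d2 and d4) in 1 µg/mL Dox. XEN cells, an extra-embryonic endoderm line of strain CD1 without the cassette, grown in the same medium without LIF and without Dox, were profiled for every factor but ESRRB. In a separate experiment, with 1 of the 2 transgenic clones, GATA6 and SOX17 were profiled 48 h after nucleofection with control siRNA (siCTL) or Oct4 siRNA (siOCT4), both in 1 µg/mL Dox. Both ES and XEN cells grew on mouse fibroblast feeders, which were adsorbed before fixation, and any that remained would have contributed chromatin. In bulk chromatin, fewer cells with a bound site and less binding per cell cannot be told apart.

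PDGFRA is the receptor for PDGF-A and a surface marker of the primitive endoderm (PrE), the yolk sac lineage that separates from the epiblast in the blastocyst. FGF4 is secreted by epiblast precursors and by ES cells, and acts through the tyrosine kinase receptors FGFR1 and FGFR2 on the RAS-ERK cascade, which favours PrE over epiblast fate. DUSP6 removes the activating phosphates from ERK, and SPRY4 restrains receptor signalling upstream of it. Both are induced by ERK activity and are widely used as its readouts. GATA6 and SOX17 are transcription factors of the PrE, whereas OCT4, SOX2 and ESRRB are pluripotency factors.

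Values are RPM, the reads in a region scaled to a library of 1000000 reads. The deposited table gives a single value per region and condition, but its decimals hold the whole reads of the libraries behind it: in 36 of the 45 condition columns the value was resolved into 2 libraries, called here the deeper and the shallower. The 76 libraries with a known depth had a depth of 5.42 to 69.4 in units of 1000000 reads, with a median of 15.3. The labels list 3 libraries for GATA6 and SOX2 at d4 and 1 for GATA6 at d0 and OCT4 in XEN cells. At d4 the recovered pair may therefore include a merged library. Library values below are given as deeper and then shallower, without the read that the authors added to each count. Changes between replicated conditions were tested with the edgeR quasi-likelihood test on these reads over all 42403 regions, with Benjamini-Hochberg adjustment over all of them, and "rose" and "fell" are used for an adjusted p under 0.05. At d0, reads could be recovered for GATA6 alone, from its 1 library, which was assumed to vary like the other GATA6 libraries. For the other factors, a region was called against d0 past a 2-fold change of the deposited RPM, and edgeR used 8h or 16h in its place. The SE given with a log2 change, also written after ±, was calculated as the size of the change over the square root of the test's F statistic. A region is named by the distance in kb from the RefSeq start of its gene to the GATA6 summit, positive downstream.

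Of the 73 members, 6 lay at a promoter, which was within 1 kb of an annotated start. A GATA6 motif was found by the authors in 65 of the 73 members (89.0%, against 89.7% of all regions) and an OCT4:SOX2 motif in 51 (69.9% against 71.5%). By the authors' clusters, 35 members were transient (47.9% against 38.4% of all regions), 20 early and constant (27.4% against 28.0%) and 18 late (24.7% against 33.6%). The loci were not alike in this respect: 10 of the 20 Pdgfra regions were late, all 6 Fgfr1 regions were transient, and 13 of the 18 Spry4 regions were transient. Chromatin of undifferentiated cells was classed as closed at 18 of 20 Pdgfra regions and at 5 of 18 Spry4 regions, and at 43 of the 73 members (58.9%, against 61.3% of all regions). Facultative heterochromatin was the histone class of 24 members (32.9% against 22.3%), of which 14 were at Pdgfra. These classes were made by the authors on the same libraries, and are given as descriptions.

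The sequences below come from the mouse reference assembly GRCm38.p6, whose coordinates are those of mm10, and surround the best motif that the authors list for regions the results turn on. Each is printed 5′ to 3′ on the strand of the motif, with the motif in capitals, and none overlaps an annotated exon. The first group is from Pdgfra, where the strongest sites lie upstream of the gene. At −14.2 kb the best GATA6 motif (chr5:75137283-75137345, + strand) was 715 bp from the summit, and an OCT4:SOX2 motif (chr5:75137966-75138030, + strand) was 31 bp from it. At −8.4 kb the best GATA6 motif (chr5:75145066-75145128, − strand) was 1294 bp from the summit. At −5.6 kb (chr5:75146618-75146736, + strand), a GATA6 motif and an OCT4:SOX2 motif were separated by 41 bp, and both are in capitals. GATA6 was lower there under Oct4 siRNA, in a call that needed all 4 libraries.
Pdgfra −14.2 kb, GATA6 motif: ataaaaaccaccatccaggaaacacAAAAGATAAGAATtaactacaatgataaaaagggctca
Pdgfra −14.2 kb, OCT4:SOX2 motif: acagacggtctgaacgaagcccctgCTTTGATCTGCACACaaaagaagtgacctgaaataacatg
Pdgfra −8.4 kb, GATA6 motif: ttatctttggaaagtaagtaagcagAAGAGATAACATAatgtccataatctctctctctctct
Pdgfra −5.6 kb, both motifs: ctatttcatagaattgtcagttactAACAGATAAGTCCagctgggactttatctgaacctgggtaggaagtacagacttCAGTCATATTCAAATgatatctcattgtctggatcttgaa

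The second group holds the best GATA6 motif at regions of the other genes. They are the Fgfr1 site with the highest GATA6 at 8h (chr8:25431169-25431231, − strand), the site past the end of Fgfr2 that was strongest at d4 (chr7:130149271-130149333, − strand), an intronic Fgfr2 site that fell under Oct4 siRNA (chr7:130195093-130195155, − strand, 7 bp from the summit), the strongest site of the Fgf4 window (chr7:144837476-144837538, + strand), and a transient and a late site downstream of Dusp6 (chr10:99286948-99287010, + strand, and chr10:99292301-99292363, − strand). The other motifs of this group lay 499 bp (Fgfr1), 154 bp (Fgfr2 +117.7 kb) and 984 bp (Fgf4) from their summits. The Dusp6 motifs lay 10 bp (+23.7 kb) and 120 bp (+29.2 kb) from theirs. The letters GATAA were present in each GATA6 motif of this group and of the first group. The call of a fall at the intronic Fgfr2 site was lost in most fits that left out a library. The fall in those fits stayed at 0.87 to 1.52 on the log2 scale.
Fgfr1 −88.1 kb: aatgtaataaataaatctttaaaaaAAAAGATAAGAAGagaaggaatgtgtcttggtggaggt
Fgfr2 +117.7 kb: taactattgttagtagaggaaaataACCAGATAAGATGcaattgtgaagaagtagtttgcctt
Fgfr2 +71.7 kb: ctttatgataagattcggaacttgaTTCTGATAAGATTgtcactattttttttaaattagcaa
Fgf4 −22.9 kb: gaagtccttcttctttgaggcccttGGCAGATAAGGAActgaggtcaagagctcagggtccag
Dusp6 +23.7 kb: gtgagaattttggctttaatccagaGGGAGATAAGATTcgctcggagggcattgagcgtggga
Dusp6 +29.2 kb: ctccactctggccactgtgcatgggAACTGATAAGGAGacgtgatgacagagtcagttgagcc

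GATA6 was above its d0 level at most regions of these loci within 8 h of Dox, and by d4 it had fallen at more of them than it had risen. At 8h, GATA6 was more than 2-fold higher than at d0 at 60 of the 73 members, against 60.4% of all regions, and lower at 1, against 1.8%. By edgeR, 56 members were higher at 8h than at d0 (54.9% of all regions) and 0 lower (0.248%). An unadjusted p under 0.05 was found at 60 members and at 25553 of all 42403 regions. The median of all regions rose by 2.70 on the log2 scale here, and with TMM factors 9 members were higher and with DESeq2 size factors 7, with 0 lower under either. Over all 42403 regions, 2947 were higher and 627 lower with TMM factors, and 1957 and 743 with DESeq2 size factors. From 8h to d4, 14 members were past 2-fold higher (30.9% of all regions) and 36 past 2-fold lower (34.8%). By edgeR, GATA6 rose from 8h to d4 at 18 members (36.3% of all regions) and fell at 40 (40.0%). From d4 to XEN cells, 11 members were past 2-fold higher (14.4%) and 8 lower (11.7%), and by edgeR 14 were higher (17.9%) and 8 lower (12.5%). The median change from 8h to d4 was a log2 fall of 1.08 over the members and of 0.08 over all regions. The comparisons of d4 with 8h and with XEN cells share the d4 libraries.

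**Figure D1:**
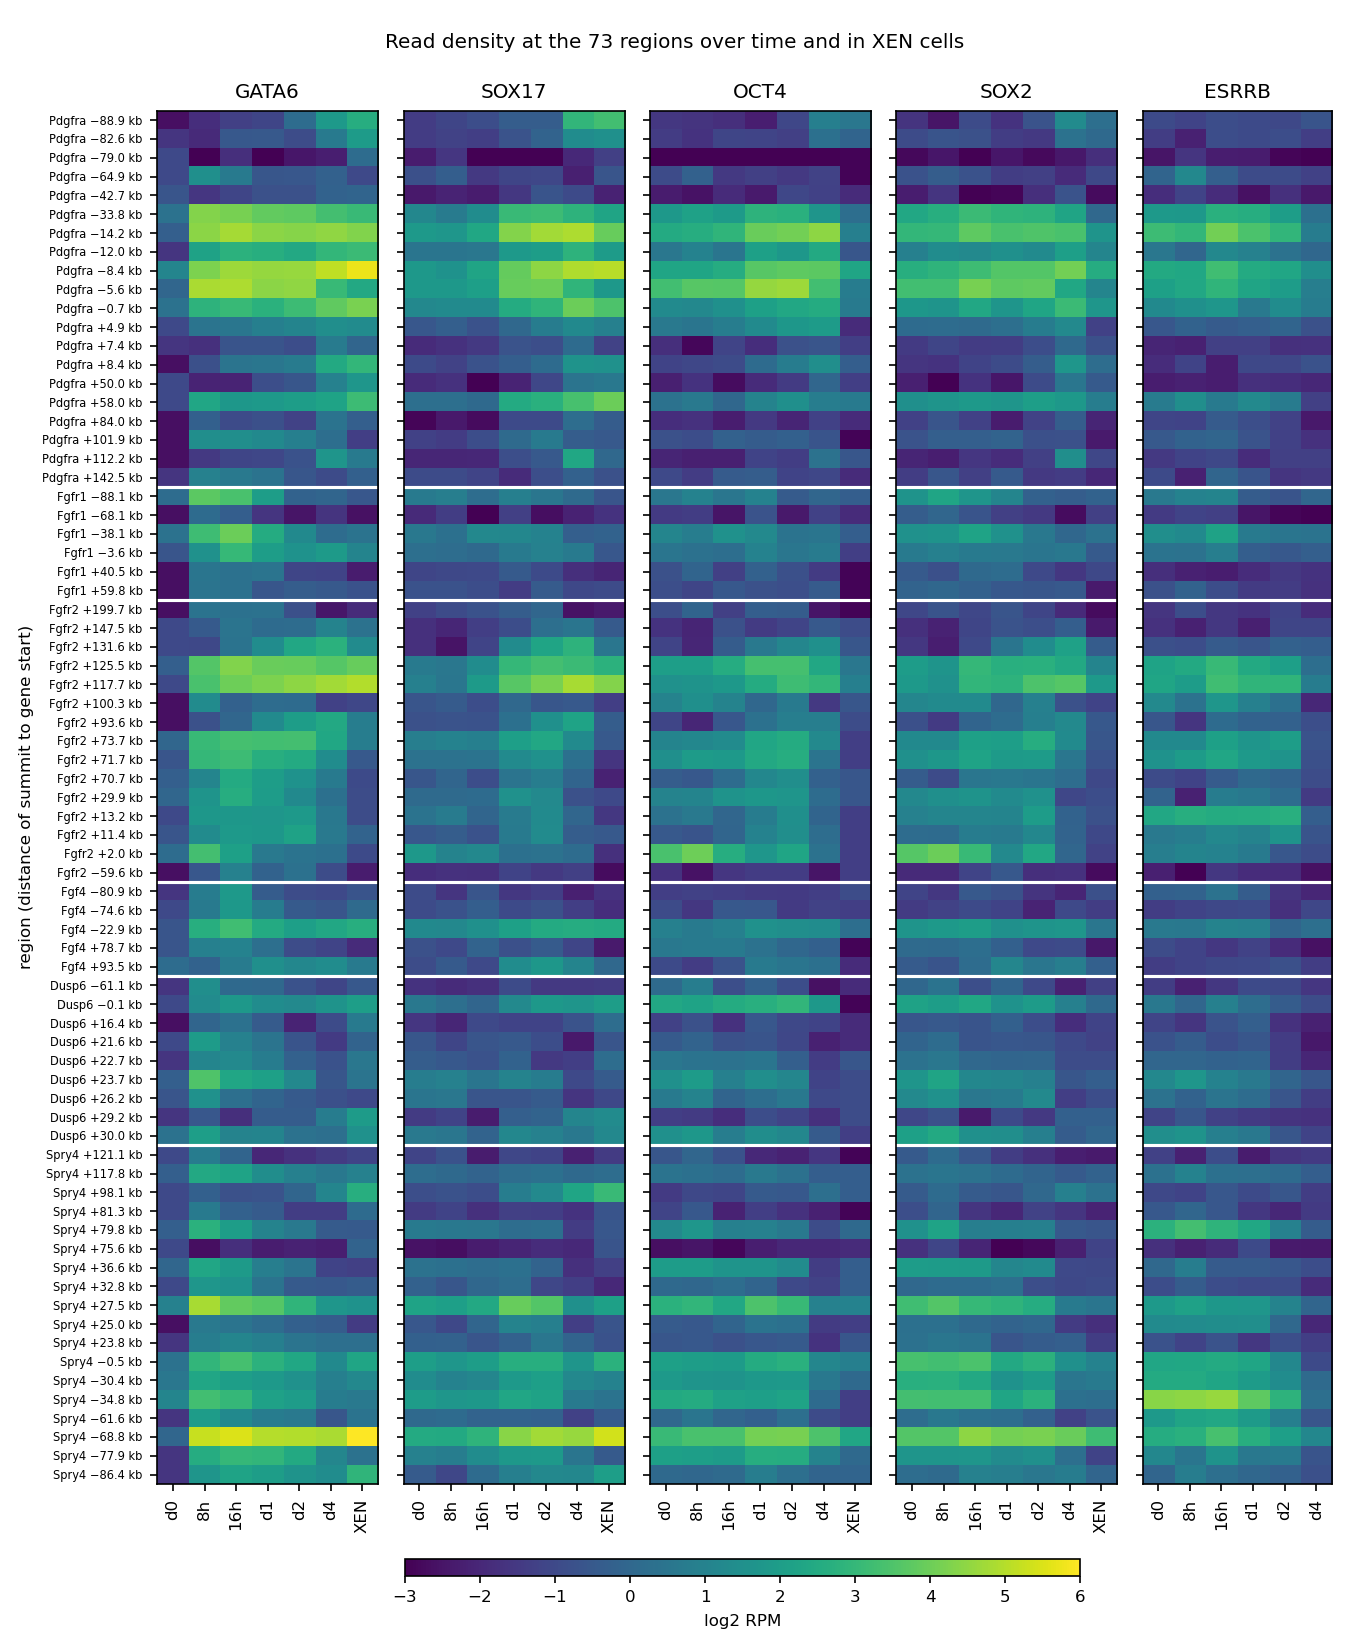
Read density of each factor (columns: condition) at each of the 73 regions (rows, ordered by position in a locus and named by distance to the gene start), as log2 of the deposited RPM, with white lines between loci. No region exceeds 2.12 RPM of GATA6 at d0 (dark), 60 regions were past 2-fold higher at 8h (lighter), and GATA6 fell again by d4 at 5 Fgfr1, 7 Dusp6 and 13 Spry4 regions.

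The loci differed in direction. By edgeR between 8h and d4, Pdgfra had 11 regions that rose and 5 that fell, whereas Spry4 had 1 and 13, Dusp6 1 and 7, Fgfr1 0 and 5, Fgf4 1 and 3, and Fgfr2 4 and 7. Between d4 and XEN cells the order changed: Dusp6 had 4 higher and 0 lower, Spry4 6 and 0, Pdgfra 4 and 1, Fgfr2 0 and 7, and no region of Fgfr1 or Fgf4 had a difference called. The balance between d4 and XEN cells depended on single libraries. Without the deeper d4 library, 7 members were higher and 11 lower in XEN cells, and the median over the members turned from a rise of 0.15 to a log2 fall of 0.13. Without the shallower d4 library the counts were 8 and 5, without the deeper XEN library 4 and 0, and without the shallower XEN library 13 and 6. DESeq2 called 7 higher and 7 lower, against 4499 and 3179 of all 42403 regions.

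**Figure D2:**
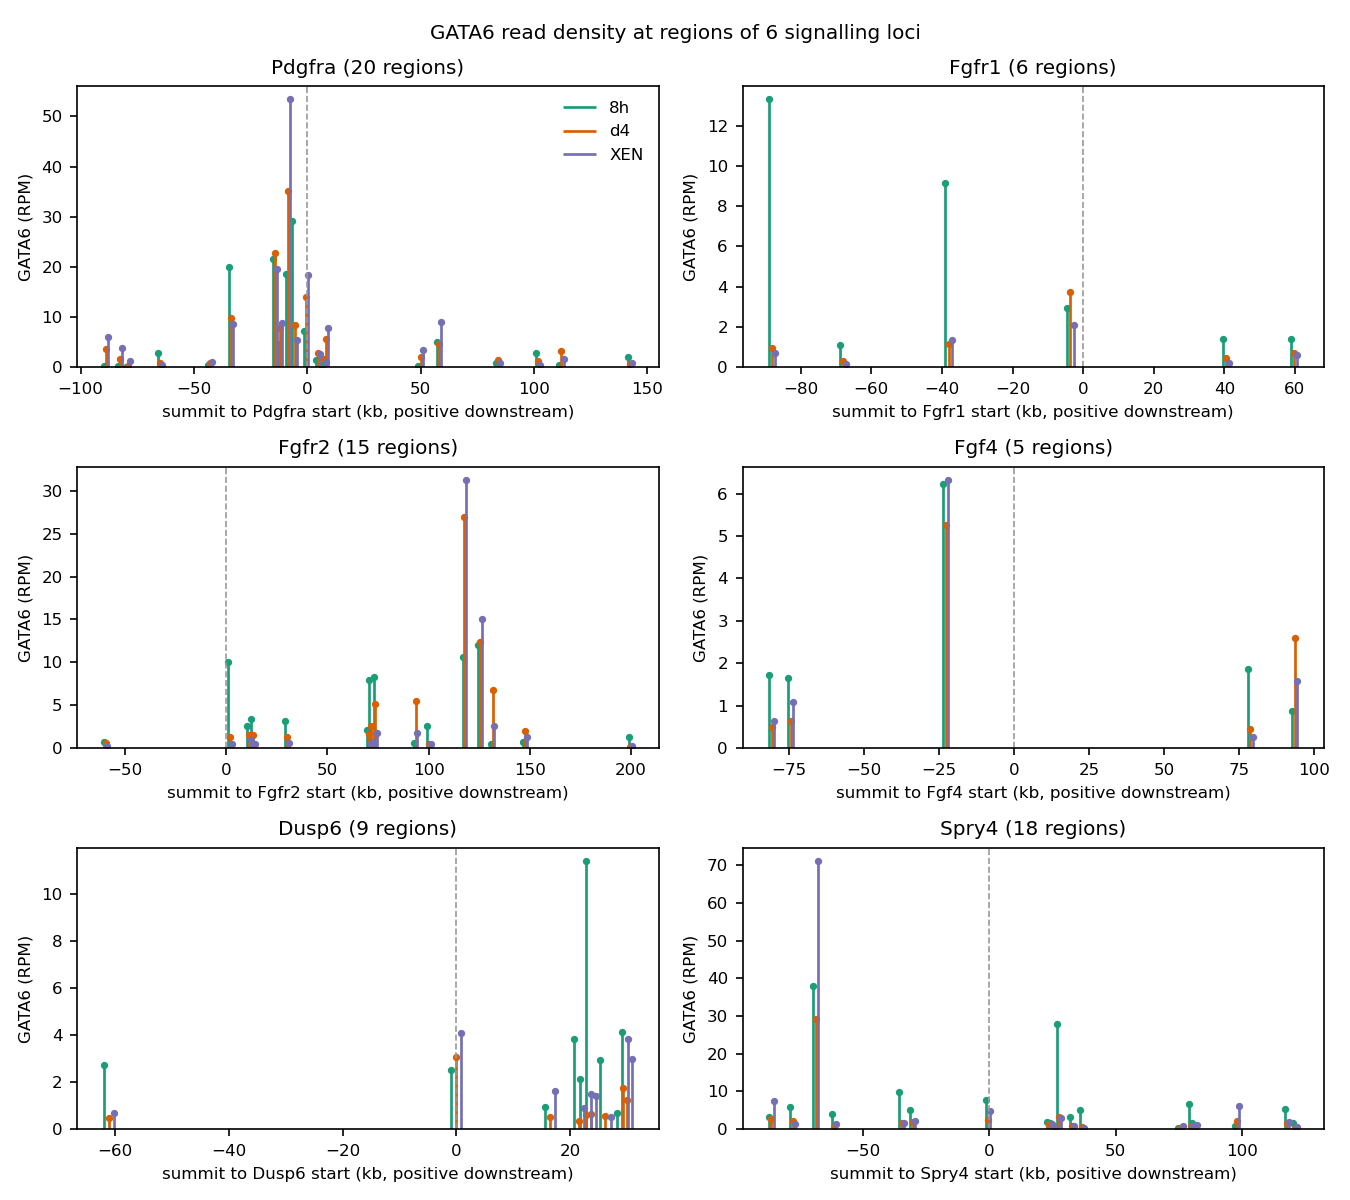
GATA6 deposited RPM (vertical axis, from 0, own scale in each panel) against the distance of the summit from the start of the named gene in kb, at 8h, d4 and in XEN cells, with the 3 conditions drawn side by side. Pdgfra has its highest values upstream of the start, reaching 53.4 RPM in XEN cells at −8.4 kb, and Spry4 has one dominant region at −68.8 kb.

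Pdgfra, spanning chr5:75152251-75198206 on the + strand, held the densest group of regions, 20 in 250 kb, of which 2 were at its annotated promoters, 2 in introns and 16 intergenic. The strongest cluster lay within 15 kb upstream of the start. At −8.4 kb, GATA6 was 1.96 RPM in the d0 library, 18.4 and 18.5 at 8h, 31.2 and 39.1 at d4, and 57.4 and 49.2 in XEN cells. The d4 libraries were both above the 8h libraries and below the XEN libraries, and GATA6 rose by 0.93 ± 0.24 (SE, log2) from 8h to d4 (edgeR adjusted p = 0.00069) and was 0.60 ± 0.24 higher in XEN cells than at d4 (edgeR adjusted p = 0.047). Input at this region ranged from 2.39 to 3.56 RPM over all conditions, above the d0 GATA6 value.

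At −14.2 kb, GATA6 was near its later level already at 8h. It was 0.653 RPM at d0, 21.8 and 21.2 at 8h, 20.7 and 24.5 at d4, and 19.6 and 19.4 in XEN cells. The d4 libraries lay around the 8h values, and the change between them was 0.07 ± 0.25 (edgeR adjusted p = 0.81). SOX17, OCT4 and ESRRB did move here. SOX17 was 3.44 and 2.98 RPM at 8h and 31.0 and 28.6 at d4. It rose by 3.20 ± 0.39 on the log2 scale (edgeR adjusted p = 2.2e-15). OCT4 was 6.28 and 5.73 RPM at 8h, 14.9 and 19.1 at d2 and 23.7 and 20.5 at d4, and rose by 1.88 ± 0.29 from 8h to d4 (edgeR adjusted p = 1.2e-05). ESRRB was 19.0 and 14.3 RPM at 16h and 1.25 and 2.08 at d4, a fall of 3.32 on the log2 scale (SE 0.57, edgeR adjusted p = 2.1e-07).

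The region at −5.6 kb, whose GATA6 and OCT4:SOX2 motifs are printed above, held less GATA6 at d4 than at 8h. GATA6 was 0.817 RPM at d0, 33.3 and 25 at 8h, 24.3 and 21.1 at d2, 6.49 and 10.0 at d4 and 4.82 and 5.83 in XEN cells. Both d4 libraries were below every library from 8h to d2, and GATA6 fell by 1.84 on the log2 scale from 8h to d4 (SE 0.27, edgeR adjusted p = 2.6e-07). OCT4 followed a different course: it was 13.0 and 12 RPM at 8h, 22.5 and 29.1 at d2 and 8.71 and 10.6 at d4. It rose by 1.04 ± 0.31 from 8h to d2 (edgeR adjusted p = 0.013), and no change was called from 8h to d4 (log2 fall of 0.38, SE 0.31, edgeR adjusted p = 0.31). SOX17 was 2.32 and 4.40 RPM at 8h, 19.4 and 12.2 at d2 and 7.70 and 7.03 at d4, the last of which was higher than 8h by 1.17 ± 0.38 (edgeR adjusted p = 0.0045).

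**Figure D3:**
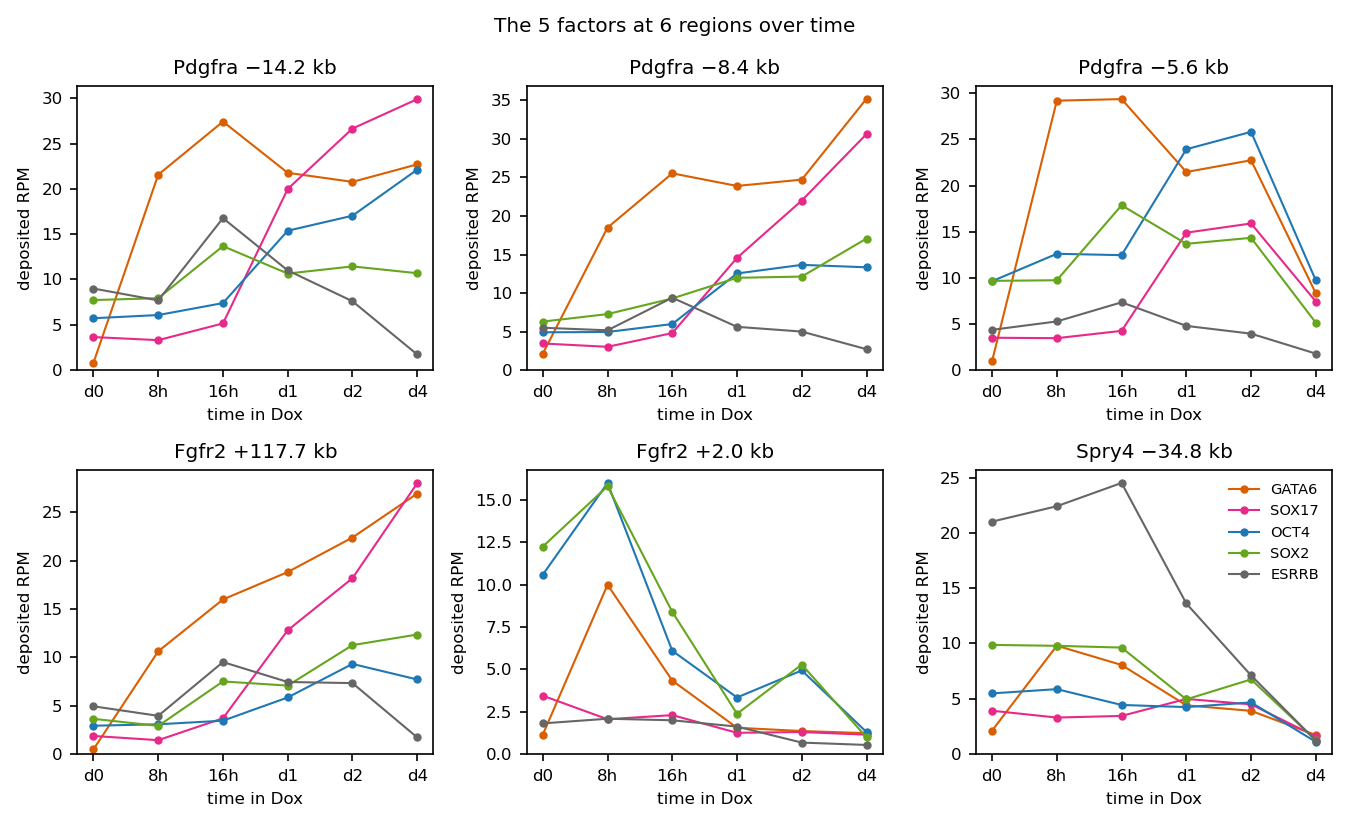
Deposited RPM of the 5 factors from d0 to d4 at 6 regions, 3 of Pdgfra, 2 of Fgfr2 and 1 of Spry4, each panel with its own scale from 0. At Pdgfra −5.6 kb OCT4 is highest at d2 and GATA6 is lower at d4 than at 8h, while at Fgfr2 +117.7 kb GATA6 and SOX17 are both highest at d4, and at Spry4 −34.8 kb ESRRB is the highest factor until d2.

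At the promoter (−0.7 kb, chr5:75150851-75152483), GATA6 was 6.93 and 7.24 RPM at 8h, 13.4 and 14.5 at d4 and 19.6 and 17.1 in XEN cells. It rose by 0.98 ± 0.26 from 8h to d4 (edgeR adjusted p = 0.0011), and SOX17 rose by 2.78 ± 0.39 (edgeR adjusted p = 1e-11). Other regions had little GATA6 at 8h and more at d4. The pair at −88.9 and −82.6 kb, in closed chromatin nearer to Gsx2 and chosen after their values were seen, held 0.288 and 0.175, and 0.245 and 0.175 RPM of GATA6 at 8h, which rose to 3.71 and 3.31, and 1.66 and 1.44 RPM at d4. At +8.4 kb, in an intron and likewise chosen afterwards, GATA6 was 0.518 and 0.524 RPM at 8h and 5.10 and 5.77 at d4, a rise of 3.37 ± 0.38 (edgeR adjusted p = 1.1e-09), and it was 8.74 and 6.86 in XEN cells. Of the other Pdgfra regions, the early region at −33.8 kb was the strongest, at 19.7 and 20.2 RPM at 8h and 7.93 and 11.6 at d4, and the remaining 12 held between 0.209 and 7.81 deposited RPM of GATA6 at d4. Of the 20 Pdgfra regions, 11 rose between 8h and d4, which included 8 of the 10 classed as late.

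Fgfr1, spanning chr8:25518759-25575718 on the + strand, held 6 regions in 270 kb, all transient and none with SOX17 or pluripotency factor peaks by the authors' classes. At −88.1 kb, GATA6 was 0.98 RPM at d0, 14.2 and 12.3 at 8h, 4.40 and 3.51 at d1, 0.942 and 0.849 at d4, and 0.261 and 0.960 in XEN cells. Both d4 libraries were below the d0 library, and the fall from 8h to d4 was 3.87 on the log2 scale (SE 0.41, edgeR adjusted p = 3.1e-10). SOX2 also fell there from 8h to d2, from 3.86 and 5.70 to 0.847 and 0.780 RPM (log2 fall of 2.53, SE 0.45, edgeR adjusted p = 0.00023). At −38.1 kb GATA6 was 10.1 and 21.4 RPM at 16h, a spread of more than 2-fold between libraries, and 0.776 and 1.36 at d4. It fell by 3.14 on the log2 scale from 8h to d4 (SE 0.38, edgeR adjusted p = 4.3e-09). The region nearest the start, at −3.6 kb, was 2.72 and 3.05 RPM at 8h and 2.61 and 4.75 at d4, with no change called (log2 change of 0.34 ± 0.37, edgeR adjusted p = 0.41). The regions at −68.1, +40.5 and +59.8 kb, the last in the UTR of the neighbouring Letm2, stayed under 2 RPM in every time course library of GATA6 and fell by 2.06, 2.05 and 1.05 on the log2 scale.

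Fgfr2, spanning chr7:130162451-130266808 on the − strand, had 9 of its 15 regions in introns. At +2.0 kb, in the first part of the gene and the region with the highest OCT4 at d0, GATA6 was 0.98 RPM at d0, 11 and 8.90 at 8h, 4.93 and 3.51 at 16h, 0.887 and 1.44 at d4 and 0.391 and 0.480 in XEN cells. GATA6 fell by 3.15 on the log2 scale between 8h and d4 (SE 0.36, edgeR adjusted p = 2.1e-09). OCT4 was 16.2 and 15.7 RPM at 8h, 5.86 and 3.94 at d2 and 1.71 and 0.8002 at d4, and SOX2 was 14.6 and 16.8 at 8h and 0.832 and 1.04 at d4. OCT4 fell by 3.63 (SE 0.50, edgeR adjusted p = 3e-06). After 8h, the deposited values of GATA6, OCT4 and SOX2 at this region were all lowest at d4.

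Past the end of the gene, at +117.7 kb, GATA6 was 0.327 RPM at d0, 10.3 and 10.8 at 8h, 23.8 and 29.9 at d4 and 33.6 and 28.7 in XEN cells. It rose by 1.34 ± 0.27 (edgeR adjusted p = 2.6e-05), and no difference was called between XEN cells and d4 (log2 change of 0.22 ± 0.26, edgeR adjusted p = 0.56). SOX17 was 0.897 and 1.79 RPM at 8h, 22.8 and 13.4 at d2 and 31.2 and 24.7 at d4, and rose by 4.44 ± 0.43 (edgeR adjusted p = 8.1e-23). OCT4 rose by 1.35 ± 0.34 from 8h to d4 (edgeR adjusted p = 0.002) and SOX2 by 1.99 ± 0.38 from 8h to d2 (edgeR adjusted p = 0.00043). The adjoining region at +125.5 kb held 12 and 12 RPM of GATA6 at 8h and 11.4 and 13.2 at d4 (log2 change of 0.03 ± 0.27, edgeR adjusted p = 0.92).

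Regions at +131.6 and +93.6 kb, chosen after their values were seen, were higher at d4 than at 8h or in XEN cells. At +131.6 kb GATA6 was 0.418 and 0.436 RPM at 8h, 6.21 and 7.22 at d4 and 1.76 and 3.15 in XEN cells. It rose by 3.97 ± 0.44 (edgeR adjusted p = 8.2e-10) and was then lower in XEN cells by a log2 fall of 1.45 (SE 0.37, edgeR adjusted p = 0.0032). SOX17 there was 0.150 and 0 RPM at 8h and 7.23 and 6.68 at d4, and OCT4 and SOX2 rose as well, by 3.55 ± 0.54 and 3.95 ± 0.65 from 8h to d2 (edgeR adjusted p = 4.8e-05 and 7.1e-05). At +93.6 kb GATA6 went from 0.547 and 0.524 to 4.71 and 6.03 RPM, and was 1.11 and 2.26 in XEN cells. Inside the gene, the neighbouring regions at +73.7, +71.7 and +70.7 kb were lower in XEN cells than at d4, by log2 falls of 1.54, 1.97 and 1.84, and none of the 15 Fgfr2 regions was called higher in XEN cells. Not every distal region held more GATA6 at d4. At +199.7 kb, the farthest from the start, the 8h libraries held 1.60 and 0.960 RPM of GATA6 and the d4 libraries 0.0554 and 0.170, a fall of 3.71 on the log2 scale (SE 0.74, edgeR adjusted p = 2.9e-05). At +100.3 kb it fell by 2.91, from 2.81 and 2.18 to 0.277 and 0.424 RPM (SE 0.49, edgeR adjusted p = 2.2e-06). Both were likewise chosen after their values were seen.

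Fgf4, spanning chr7:144861386-144865245 on the + strand, had no region closer than 22.9 kb, and its window also holds Fgf3, Fgf15 and Ccnd1. The strongest region in the time course, at −22.9 kb, lies at the promoter of Fgf3, which encodes another FGF ligand. GATA6 there was 0.490 RPM at d0, 5.99 and 6.37 at 8h, 6.88 and 12 at 16h, 4.77 and 5.60 at d4 and 6.45 and 6.03 in XEN cells. The d4 libraries were both below the 8h libraries, but by less than the error of the fit (log2 fall of 0.25, SE 0.30, edgeR adjusted p = 0.44). SOX17 was 1.79 and 2.62 RPM at 8h and 6.06 and 5.63 at d4, a rise of 1.43 ± 0.39 (edgeR adjusted p = 0.00076).

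At +93.5 kb of Fgf4, 15.1 kb upstream of the start of Ccnd1, GATA6 was 0.619 and 1.05 RPM at 8h and 2.66 and 2.38 at d4. It rose by 1.78 ± 0.45 (edgeR adjusted p = 0.0006), as did OCT4 from 8h to d2, by 2.12 ± 0.52 (edgeR adjusted p = 0.0036). The region at +78.7 kb is the promoter of Ccnd1, which encodes the cell cycle regulator cyclin D1. GATA6 there was 1.64 and 2.01 RPM at 8h and 0.333 and 0.424 at d4, and fell by 2.23 on the log2 scale (SE 0.50, edgeR adjusted p = 0.00013). The regions at −80.9 and −74.6 kb fell by 1.91 and 1.37, from 1.60 and 1.75, and 1.09 and 2.09 RPM at 8h.

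Dusp6, spanning chr10:99263231-99267489 on the + strand, had 1 region at its promoter and 7 downstream of it. The promoter region (−0.1 kb) held 2.69 and 2.27 RPM of GATA6 at 8h and 2.61 and 3.40 at d4 (log2 change of 0.23 ± 0.33, edgeR adjusted p = 0.53), and was the Dusp6 region with the highest OCT4, at 4.91 and 4.31 RPM at 8h and 7.95 and 7.05 at d2. Downstream, at +23.7 kb, GATA6 was 0.653 RPM at d0, 11.3 and 11.3 at 8h, 2.16 and 2.33 at d2, 0.499 and 0.679 at d4 and 1.76 and 0.891 in XEN cells. GATA6 fell by 4.29 on the log2 scale between 8h and d4 (SE 0.42, edgeR adjusted p = 7.5e-11). OCT4 fell by 3.24 from 3.73 and 3.72 RPM (SE 0.41, edgeR adjusted p = 1.1e-06).

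The region at +29.2 kb was the exception among the Dusp6 regions. GATA6 there was 0.648 and 0.611 RPM at 8h, 1.72 and 1.61 at d4 and 3.65 and 3.84 in XEN cells, rising by 1.38 ± 0.42 from 8h to d4 (edgeR adjusted p = 0.0031) and being a further 1.16 ± 0.37 higher in XEN cells (edgeR adjusted p = 0.015). SOX17 rose with it, by 2.48 ± 0.56 from 8h to d4 (edgeR adjusted p = 3.8e-05). The other 6 Dusp6 regions held 0.954 to 4.15 deposited RPM of GATA6 at 8h and 0.362 to 1.22 at d4, and GATA6 fell at each of them, by 1.08 to 3.50 on the log2 scale.

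Spry4, spanning chr18:38586247-38601347 on the − strand, held 18 regions in 230 kb. Its strongest region, at −68.8 kb (chr18:38668434-38671001), lies nearer to the start of Gm19774, 44.2 kb away, than to that of Spry4. GATA6 there was 0.817 RPM at d0, 40.6 and 35.2 at 8h, 26.7 and 31.7 at d4 and 74.5 and 67.5 in XEN cells. The XEN libraries stood above every library of the time course, by 1.28 ± 0.24 over d4 on the log2 scale (edgeR adjusted p = 0.00012), whereas no change was called from 8h to d4 (log2 fall of 0.38, SE 0.24, edgeR adjusted p = 0.14). The GATA6 value at 8h and the OCT4 value at d2 of this region were the 2 of 2628 member values that could be resolved into more than one pair of reads, and the most alike pair was used. Input there ranged from 1.83 to 4.44 RPM, the highest input of any member. SOX17 was 4.71 and 6.19 RPM at 8h, 24.3 and 24.5 at d4 and 40.6 and 43.4 in XEN cells, and rose by 2.17 ± 0.37 from 8h to d4 (edgeR adjusted p = 2.3e-08).

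Downstream, at +27.5 kb (chr18:38573265-38574863), GATA6 was 29.2 and 26.8 RPM at 8h, 7.57 and 7.14 at d2 and 2.44 and 4.07 at d4. It fell by 3.13 on the log2 scale from 8h to d4 (SE 0.31, edgeR adjusted p = 1.1e-10), together with OCT4, which fell by 1.98 (SE 0.35, edgeR adjusted p = 5.1e-05). At the promoter (−0.5 kb), GATA6 was 7.40 and 7.85 RPM at 8h, 2.22 and 2.46 at d4 and 5.54 and 4.18 in XEN cells, falling by 1.70 on the log2 scale to d4 and being 1.06 ± 0.34 higher in XEN cells (edgeR adjusted p = 2e-05 and 0.016). ESRRB was strongest of all members at −34.8 kb, a region chosen after its values were seen: it was 27.3 and 21.4 RPM at 16h, 5.12 and 8.99 at d2 and 0.780 and 1.55 at d4, a fall of 4.39 on the log2 scale (SE 0.62, edgeR adjusted p = 2.9e-10). Apart from −68.8 and −0.5 kb, the 4 Spry4 regions higher in XEN cells than at d4 were −86.4, +75.6, +81.3 and +98.1 kb, with 0.902 to 7.47 deposited RPM in XEN cells. Of these, −86.4 kb lies nearer to the start of Gm19774 and +98.1 kb nearer to that of Ndfip1. At +98.1 kb GATA6 was 1.72 and 2.38 RPM at d4 and 6.98 and 5.28 in XEN cells (log2 difference of 1.60 ± 0.35, edgeR adjusted p = 0.00071).

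**Figure D4:**
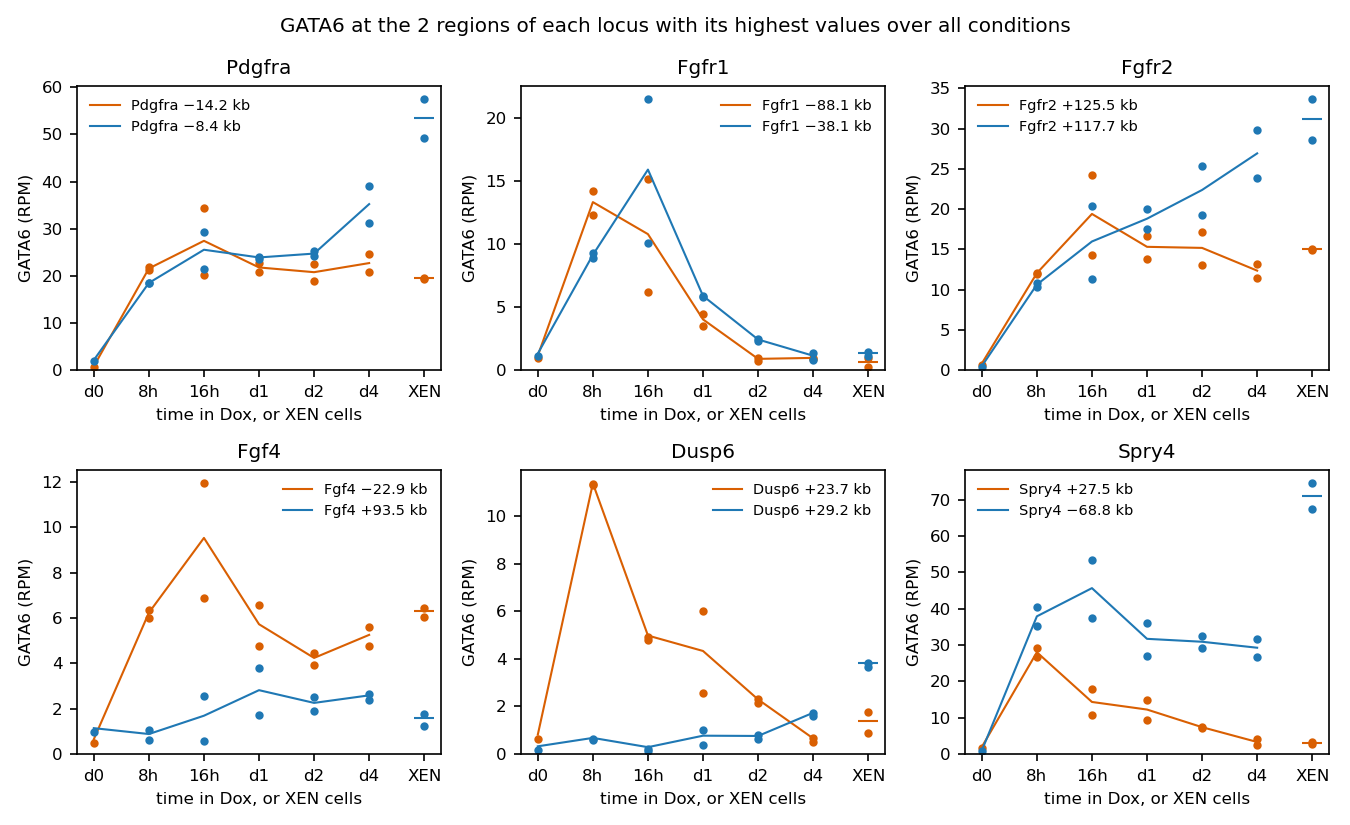
GATA6 from d0 to d4 and in XEN cells at 2 regions of each locus, those with its highest GATA6 in any condition of the study; lines and bars are deposited RPM and points are the recovered libraries (1 at d0). The 2 Fgfr1 regions and Dusp6 +23.7 kb return to near their d0 values by d4. Pdgfra −8.4 kb and Spry4 −68.8 kb are higher in XEN cells than at any time from d0 to d4. The deposited value of Fgfr2 +117.7 kb is also highest in XEN cells, but its libraries overlap those of d4 and no difference was called.

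SOX17 rose at 15 of the 20 Pdgfra regions and at 12 of the other 53. At d0, before Dox, its median over the members was 0.679 RPM, against 0.567 RPM in input, with the highest value, 5.72 RPM, at Spry4 −68.8 kb, where input was 2.29. Over the members, SOX17 was past 2-fold higher at d4 than at d0 at 27, against 44.5% of all regions, and lower at 8, against 8.72%. From 8h to d4, edgeR called 27 members higher (48.0% of all regions) and 8 lower (7.08%), with 15 of the 27 at Pdgfra, 5 at Fgfr2, 3 at Spry4 and 2 each at Fgf4 and Dusp6. The median of all regions rose by 1.29 on the log2 scale in this comparison, so the direction of smaller changes depends on the scaling. With trimmed-mean (TMM) factors in place of library size, 17 members were higher and 27 lower, and with DESeq2 size factors 17 and 30. Over all 42403 regions, 11035 were higher and 9222 lower with TMM factors, and 10418 and 9776 with DESeq2 size factors. Of the 27 members called higher, 26 rose by more than that median, 14 of them at Pdgfra; at Pdgfra −5.6 kb the rise of 1.17 was below it. By edgeR, no SOX17 change was called at the 6 Fgfr1 regions, and 0 of them had an unadjusted p under 0.05, against 25209 of all 42403 regions.

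OCT4 rose at regions of Pdgfra and fell at regions of Dusp6 and Spry4, while at Fgfr2 it rose at some regions and fell at others. At d2, OCT4 was past 2-fold higher than at d0 at 18 members (14.6% of all regions) and lower at 2 (4.86%), and at d4 it was higher at 15 (21.0%) and lower at 16 (19.4%). By edgeR, d2 was higher than 8h at 15 members (18.7%) and lower at 6 (10.3%), and d4 was higher at 17 (26.3%) and lower at 22 (25.2%). The median of all regions rose by 0.33 at d2 and 0.24 at d4, and with TMM factors the counts were 14 and 8 at d2 and 17 and 25 at d4. Over all 42403 regions, the TMM counts were 5464 and 6467 at d2 and 10068 and 11528 at d4. With DESeq2 size factors the member counts were 14 and 11 at d2, against 5136 and 7036 of all regions. The 17 regions higher at d4 were at Pdgfra (11), Fgfr2 (4), Fgf4 (1) and Spry4 (1), with 0 at Dusp6. The 22 lower were at Spry4 (10), Dusp6 (6), Fgfr2 (4) and Fgfr1 (2), so at Fgfr2 the rises and falls were equal in number. At d2 against 8h, 7 regions of Pdgfra and 7 of Fgfr2 were higher. OCT4 in XEN cells, from 1 library, was at most 5.07 RPM at any member.

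SOX2 changed at fewer members. It was past 2-fold higher at d2 than at d0 at 4 members (6.01% of all regions) and lower at 3 (6.7%). By edgeR, 6 were higher at d2 than at 8h (6.19%) and 6 lower (8.37%), 5 of the 6 higher being at Fgfr2. ESRRB was past 2-fold lower at d4 than at d0 at 30 members (25.2% of all regions) and higher at none (0.248%), 4 of the 30 at Pdgfra, 9 at Fgfr2, 6 at Dusp6 and 9 at Spry4. By edgeR, it fell from 16h to d4 at 30 (22.6%) and rose at none (0.396%), which became 17 lower and 1 higher with TMM factors. With these factors, 4632 of all 42403 regions were lower and 1587 higher. The median of all regions fell by 0.67 in that comparison.

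Levels of the factors at the members were related across regions, which share libraries and differ in width. GATA6 and SOX17 at d4 had a Spearman correlation of 0.946 over the 73 members and 0.926 over all regions, whereas GATA6 at 8h and SOX17 at d4 had 0.303 and 0.103. OCT4 and SOX2 at d2 had 0.958 and 0.917. These are descriptions of levels, and regions are not independent replicates.

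The siRNA experiment asked whether GATA6 and SOX17 binding changes when OCT4 is depleted during the first 48 h. The level of OCT4 itself in these cells was not analysed here. By fold, GATA6 was past 2-fold higher with siOCT4 at 6 members (7.77% of all regions) and lower at 5 (5.28%), and SOX17 higher at 6 (20.8%) and lower at 0 (0.441%). By edgeR, GATA6 was higher at 3 (6.07%) and lower at 4 (4.34%), and SOX17 higher at 2 (2.48%) and lower at none (0.0118%). With TMM or DESeq2 size factors in place of library size, GATA6 was higher at 10 and lower at 12. Over all 42403 regions, it was higher at 5864 and lower at 4944 with TMM factors, and at 5854 and 5004 with DESeq2 size factors. With DESeq2, GATA6 was higher at 2 and lower at 2, against 1428 and 825 of all regions. SOX17 was higher at 2, against 1763 of all regions. Before adjustment, 17 members for GATA6 and 4 for SOX17 had p under 0.05, against 10360 and 7217 of all 42403 regions. Of the 2 SOX17 siOCT4 libraries, the shallower was higher at 67 of the 73 members, and the share over all regions was not counted. Over all regions, this pair differed most of the 36 resolved pairs, relative to counting noise, so the difference is not particular to the members. The median of all regions was 0.63 higher with siOCT4. With TMM factors SOX17 was higher at 4 members and lower at 2, against 3179 and 2749 of all 42403 regions.

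GATA6 was higher with siOCT4 at 3 regions of the late class, 2 at Pdgfra and 1 at Dusp6. By the authors' classes, all were in closed chromatin and without pluripotency factors. Over the 73 members, 18 were late, 43 closed and 44 without pluripotency factors. Of the regions where GATA6 was lower, Pdgfra −5.6 kb, Pdgfra +101.9 kb and Fgfr2 +71.7 kb were also closed. Pdgfra +101.9 kb and Spry4 +79.8 kb were also without pluripotency factors, and all of the lower regions were early or transient. At Pdgfra −88.9 kb GATA6 was 0.707 and 0.475 RPM with siCTL and 3.01 and 4.18 with siOCT4. It was higher by 2.54 ± 0.45 on the log2 scale (edgeR adjusted p = 5.5e-06). At Dusp6 +29.2 kb it was 0.610 and 0.907 with siCTL and 4.79 and 4.18 with siOCT4, higher by 2.59 ± 0.43 (edgeR adjusted p = 7.9e-07). The naming rule picked this region through its siOCT4 value. The libraries of the 2 treatments did not overlap at Pdgfra −88.9 kb or Dusp6 +29.2 kb. Both regions were called from these same libraries, and the share of all regions without overlap was not counted. With any 1 of the 4 libraries left out, the log2 differences were 2.31 to 2.88 at both regions. At Pdgfra −82.6 kb GATA6 was 0.321 and 0.475 with siCTL and 1.27 and 2.09 with siOCT4, higher by 2.02 ± 0.54 (edgeR adjusted p = 0.0051). This call was lost without the shallower siOCT4 library (edgeR adjusted p = 0.069) or the deeper siCTL library (edgeR adjusted p = 0.14).

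SOX17 was higher at the same Dusp6 and Pdgfra regions. At Dusp6 +29.2 kb it was 0.377 and 0.516 RPM with siCTL and 2.93 and 5.82 with siOCT4, higher by 3.27 ± 0.69 (edgeR adjusted p = 0.0016), and at Pdgfra −88.9 kb 1.38 and 0.670 against 4.12 and 8.52, higher by 2.59 ± 0.63 (edgeR adjusted p = 0.0091). These changes were larger than the median of 0.63. Without the deeper or the shallower siOCT4 library, the log2 differences were 3.7 and 2.72 at Dusp6 +29.2 kb and 3.01 and 1.97 at Pdgfra −88.9 kb. Such fits rest on 1 siOCT4 library and cannot decide whether the calls hold. Without the deeper or the shallower siCTL library no region of the 42403 was called (1177 and 996 with an unadjusted p under 0.05), and the log2 differences were 3.06 and 3.51 at Dusp6 +29.2 kb and 3.22 and 2.18 at Pdgfra −88.9 kb.

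GATA6 was lower at 4 regions, 3 of them outside the rule for named regions and chosen after their values were seen. At Pdgfra −5.6 kb, which had the highest OCT4 of its locus at d2, GATA6 was 30.4 and 40.0 RPM with siCTL and 15.8 and 20.6 with siOCT4, a log2 fall of 0.96 (SE 0.33, edgeR adjusted p = 0.039). At Fgfr2 +71.7 kb it was 10.2 and 8.64 against 3.30 and 5.17, a fall of 1.2 (SE 0.35, edgeR adjusted p = 0.012). At Spry4 +79.8 kb it was 1.48 and 2.29 against 0.725 and 0.398, a fall of 1.60 (SE 0.49, edgeR adjusted p = 0.018), and at Pdgfra +101.9 kb 4.27 and 5.44 against 2.18 and 2.19, a fall of 1.15 (SE 0.38, edgeR adjusted p = 0.032). The siCTL libraries were both above the siOCT4 libraries at each of the 4 regions. The regions were called from these same libraries, so this separation is a description, and its share over all regions was not counted. With any 1 of the 4 libraries left out, the log2 falls were 0.75 to 1.16 at Pdgfra −5.6 kb and 0.97 to 1.32 at Pdgfra +101.9 kb. They were 0.87 to 1.52 at Fgfr2 +71.7 kb and 1.28 to 2.21 at Spry4 +79.8 kb. The calls were lost in most of these fits, which rest on 1 library for a treatment and cannot decide whether the calls hold. The strongest Pdgfra regions at −8.4 and −14.2 kb had no GATA6 difference called between the siRNAs (log2 differences of 0.31 and 0.17, edgeR adjusted p = 0.61 and 0.81).

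**Figure D5:**
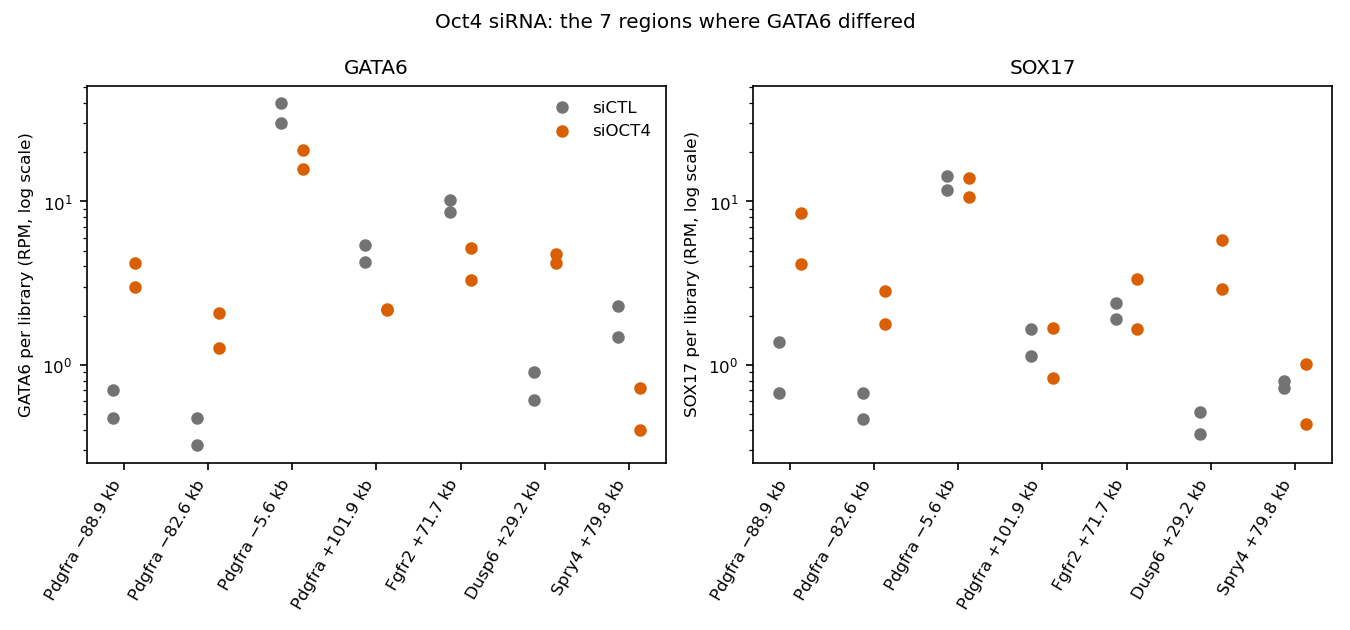
GATA6 (left) and SOX17 (right) RPM per library, on a log axis, with control (grey) and Oct4 (orange) siRNA at the 7 regions where GATA6 was called. GATA6 with siOCT4 lies above siCTL at Pdgfra −88.9, Pdgfra −82.6 and Dusp6 +29.2 kb and below it at the other 4 regions. The treatments do not overlap at these regions, which were called from the same libraries.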

How the data were processed

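The authors trimmed reads with cutadapt, aligned them to mm10 with Bowtie2, removed duplicates by molecular identifier and called peaks with MACS2 against input. They deposited, for each GATA6 region, RPM values scaled to library size, with replicates averaged, and motif scores. The authors' classes were used as descriptions. Not used were their siOct4 class, which holds the outcome of their own differential test, and 14 columns of other chromatin data.

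From the RPM values, whole reads per library were recovered: 36 of 45 columns resolved into 2 libraries, with 99.9773% of 1526162 values given by a single pair of whole reads, 346 by more than one pair and 0 by none, at a relative tolerance of 1e-11 or within rounding of the last printed digit. Another 4 columns held 1 library, among them ESRRB at 8h and SOX17 at 16h, for which 2 are labelled, and 5 columns, all at d0 (input and every factor but GATA6), could not be resolved. The main call was a 2-fold change of log2(RPM + pseudocount), with the pseudocount at percentile 5 of each factor (0.164 to 0.195 RPM). Such a fold understates the change of low regions. The design had assumed that libraries could not be separated; once reads were recovered, edgeR (4.0.16) was run as an alternative with depth as library size, 42403 regions and a threshold of 0.05. DESeq2 (1.42.0), TMM and DESeq2 size factors, other pseudocounts and thresholds, input division, shorter windows and leaving out each library were also tried. The scripts were tested on simulated data. The study's methods give 2 separately prepared chromatins for most conditions. The labels do not say whether these came from separate cultures, so p-values measure the spread between these libraries.

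Windows, region lists and gene lists were chosen with earlier results of these data known. Regions were named by rule. Per locus, these were the 2 with the highest GATA6 in any condition, siRNA included. Those with the highest SOX17 at d4, the highest OCT4 at d0 and at d2, and the summit nearest the start were also named. So were all regions of a locus with 6 or fewer. Dusp6 +29.2 kb met the GATA6 rule through its siOCT4 value, 4.55 RPM, so its naming was not independent of the siRNA result. Positions were set against RefSeq transcripts of GRCm38.p6, with a promoter within 1 kb of a start. The authors' best GATA6 motifs had GAT at motif position 5 in 86.9% of 38052 regions, read from this assembly.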

Additional observations from a re-analysis of the deposited data

How the results depend on the processing

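No paired analysis was possible because the recovered libraries carry no replicate number. For SOX17, OCT4, SOX2 and ESRRB, reads per library were not recovered at d0, so 8h, or 16h for ESRRB, stood in for it in edgeR, an alternative chosen after seeing the data, as were the filter of at least 10 reads in 2 libraries and DESeq2. Over the alternatives of 10 counts of members called, 104 values stayed within 1.5 times the main count and 52 did not, and the cause was not tested.

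With a pseudocount 10 times larger, fewer members were past 2-fold: 33 for GATA6 at 8h against d0, 20 for d4 against 8h, 4 for XEN against d4, 15 for SOX17, 6 and 11 for OCT4 at d2 and d4, 1 for SOX2, 13 for ESRRB, and 2 and 3 for GATA6 and SOX17 under siRNA. With one 10 times smaller, SOX2 had 15 and SOX17 under siRNA 10. At 1.5-fold there were 41 for GATA6 in XEN cells, 32 for OCT4 at d2, 30 for SOX2, and 24 and 28 for GATA6 and SOX17 under siRNA. Relative to the median of all regions, GATA6 at 8h had 36, and after division by input SOX2 had 4. Windows 50 kb shorter at each end, with 47 members, gave 29, 11 and 5 for GATA6 at d4, in XEN cells and under siRNA. The share of all regions called at these settings was not counted.

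By edgeR, 7 members were called for GATA6 and 2 for SOX17 under siRNA, and 12 for SOX2. DESeq2 called 4, 2 and 4. For SOX2, DESeq2 had 1016 of all 42403 regions higher and 924 lower. With TMM factors 9 members were called for GATA6 at 8h against d0, and with DESeq2 size factors 7, against 61 by fold. With either, GATA6 under siRNA had 22 (10 higher, 12 lower), SOX2 15 and ESRRB 18. SOX2 with TMM factors was higher at 3204 and lower at 3188 of all 42403 regions. After the read filter SOX2 had 13, against 2673 higher and 3583 lower of 35487 regions. SOX17 under siRNA had 2 after it, against 1274 higher and 5 lower of 33838 regions.

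Leaving out 1 library at a time gave 53 to 54 for GATA6 at 8h against d0, 4 to 19 for GATA6 in XEN cells (4 without the deeper XEN library, and 7 higher and 11 lower, in place of 14 and 8, without the deeper d4 library), 47 to 57 for d4 against 8h, 2 to 4 for GATA6 under siRNA, and 0 to 29 for SOX17 under siRNA (0 without either siCTL library, when none of the 42403 regions was called, 29 without the deeper siOCT4 library). The same gave 10 to 17 for OCT4 at d2 (10 without the deeper 8h library), 31 to 36 for OCT4 at d4, 30 to 32 for SOX17 at d4, 3 to 4 for SOX2 and 23 to 25 for ESRRB. Where a condition was left with 1 library, that library was assumed to vary like the others. Depth limits regions under about 1 RPM most, since 1 RPM is 5.42 reads in the shallowest library.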

Other observations

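Outside the windows, the regions whose pattern over 34 columns of the 5 factors was most like that of the strongest region of each locus were found among 14738 regions with at least 5 RPM of GATA6 in a condition. Pdgfra −8.4 kb was most like a region 15.8 kb upstream of Sp7 (r = 0.983) and one 13.9 kb downstream of the start of Gata4 (r = 0.983), which encodes another GATA factor of the endoderm. The Gata4 region held 17.8 RPM of GATA6 at 8h, 38.2 at d4 and 54.1 in XEN cells. Fgfr1 −38.1 kb was most like regions nearest Cdh20 (0.945) and Fam83f (0.930), Fgfr2 +117.7 kb like regions nearest Bend5 (0.976) and Adamts9 (0.968), and Fgf4 −22.9 kb like regions nearest Scube2 (0.958) and Thbs1 (0.956). Dusp6 +23.7 kb was most like regions nearest Nrxn3 (0.948) and Foxc1 (0.947), and Spry4 −68.8 kb like regions nearest Frmd7 (0.977) and Apold1 (0.976). The columns share libraries, and these correlations are descriptions.

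Among 43 other genes of PDGF, FGF and ERK signalling, 42 had a GATA6 region within 100 kb, with 359 regions in all, 5 of them inside the windows described above. By edgeR, GATA6 rose from 8h to d4 at 30.9% of these regions (36.3% of all regions) and fell at 40.4% (40.0%). It was higher in XEN cells than at d4 at 57, or 15.9% (17.9% of all regions), and lower at 40, or 11.1% (12.5%). With Oct4 siRNA it was higher at 21, or 5.85% (6.07%), and lower at 11, or 3.06% (4.34%). Genes differed in direction: at Frs2, an adaptor of FGF receptors, 12 of 18 regions rose and none fell, and at Mapk3, which encodes the kinase ERK1, 8 of 11 rose. At Myc all 6 regions fell, as did all 6 at Pdgfa, a ligand of PDGFRA. Il17rd, another feedback inhibitor, had 3 that rose and 10 that fell of 21. These genes were picked from the list after their counts were seen.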
